A study of Mus musculus with 6 samples.

Results

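The NF-kB genes described here are 10 genes: the subunit genes Nfkb1, Nfkb2, Rel, Rela and Relb, the IkB genes Nfkbia and Nfkbiz, and the target and feedback genes Tnfaip2, Tnfaip3 and Birc3. Every probe set annotated to exactly 1 of these symbols was taken, which gave 20 probe sets for 9 of the 10 genes, out of 34945 probe sets with 1 gene on the array. Nfkb1 was not analysed here. All 9 genes passed a filter on low signal, through 19 of their 20 probe sets, and so belong to the 13222 genes tested. The genes were chosen by their log2 differences between Sox2cKO and control on these same arrays, where NF-kB genes with Tnfaip2 among them had lower means, so their differences in that comparison are given as a description, without a test.

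The Affymetrix whole-genome arrays measured RNA of tumour epithelial cells from chemically induced benign skin papillomas of mice, sorted as Epcam+ and alpha6 integrin+ cells that lacked CD45, CD31 and CD140a. There were 3 arrays of control mice (CTRL) and 3 of K14CREER:SOX2fl/fl mice (Sox2cKO), and both groups had received tamoxifen for 1 week. K14CREER is a tamoxifen-activated Cre recombinase under the keratin 14 promoter, which is active in basal keratinocytes, and SOX2fl/fl stands for 2 floxed copies of Sox2. The labels do not state the genotype of the control mice, and they do not say whether an array is 1 animal or a pool, so p-values measure the spread between these arrays. The comparison asks how deletion of Sox2, which encodes a stem cell transcription factor, changes expression in benign tumour cells.

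NF-kB proteins are dimers of Rel family subunits that bind a short DNA element and switch on genes of inflammation and cell survival. In resting cells IkB proteins hold the dimers in the cytoplasm. Signals from receptors of TNF, interleukin-1 and Toll-like families activate the IkB kinase, IkB is degraded and the dimers enter the nucleus. Several target genes encode brakes on the pathway, among them Nfkbia itself and Tnfaip3. In epidermis the pathway links barrier damage to inflammation and also bears on the balance of growth and differentiation of keratinocytes.

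The element can be seen in front of several of the genes, and the sequences show which of them carry it next to their start. Of the 9 genes, 7 (not Relb and Nfkbiz) were matched in the RefSeq promoter table, build GRCm38.p6, with 10 annotated starts, and the 250 bases before each start were searched on both strands for the NF-kB consensus, with overlapping matches merged. Matches stood before 6 of the 10 starts, of 4 genes (Nfkb2, Rel, Nfkbia and Tnfaip3), and 3.9% of all 32851 windows of this length held one. The windows below run 5′ to 3′ on the gene's strand, with matches in capitals, for both inhibitors with a match and then for both subunit genes with one.
Nfkbia, chr12:55492648-55492897, minus strand: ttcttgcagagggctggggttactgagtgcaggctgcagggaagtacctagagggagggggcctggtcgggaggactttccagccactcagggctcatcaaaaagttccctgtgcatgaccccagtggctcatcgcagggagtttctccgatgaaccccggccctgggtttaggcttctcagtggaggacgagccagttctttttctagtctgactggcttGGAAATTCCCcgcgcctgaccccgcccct
Tnfaip3, chr10:19015411-19015660, minus strand: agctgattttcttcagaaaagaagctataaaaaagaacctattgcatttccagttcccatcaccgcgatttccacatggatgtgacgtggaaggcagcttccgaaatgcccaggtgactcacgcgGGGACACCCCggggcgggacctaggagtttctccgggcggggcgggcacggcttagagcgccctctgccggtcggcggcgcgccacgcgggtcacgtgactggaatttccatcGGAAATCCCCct
Nfkb2, chr19:46304487-46304736, plus strand: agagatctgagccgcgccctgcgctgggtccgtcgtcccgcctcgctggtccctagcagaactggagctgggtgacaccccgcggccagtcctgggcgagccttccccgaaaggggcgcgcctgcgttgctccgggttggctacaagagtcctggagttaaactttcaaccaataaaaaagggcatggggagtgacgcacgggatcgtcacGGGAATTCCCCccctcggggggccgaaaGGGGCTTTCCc
Rel, chr11:23770970-23771219, minus strand: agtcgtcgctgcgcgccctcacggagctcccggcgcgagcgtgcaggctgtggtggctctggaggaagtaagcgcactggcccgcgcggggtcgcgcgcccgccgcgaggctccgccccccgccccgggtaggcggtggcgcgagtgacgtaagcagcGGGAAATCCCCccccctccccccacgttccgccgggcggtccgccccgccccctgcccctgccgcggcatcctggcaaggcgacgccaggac
In the Nfkbia window the match GGAAATTCCC lay 29 to 20 bases before the start. Tnfaip3 had GGAAATCCCC 12 to 3 bases before its start and GGGACACCCC further upstream, and its second annotated start had no match. Nfkb2 had GGGAATTCCCC 39 to 29 bases before the start shown and GGGGCTTTCC next to it. This start lies inside the annotated gene, chr19:46300994-46312400, and the 2 other annotated starts of Nfkb2 had 1 match each. Rel had GGGAAATCCCC 92 to 82 bases before its start. The windows of Rela, Birc3 and Tnfaip2 held no match to the consensus, which says only that these letters are not in these 250 bases. A match is a run of letters and was not tested for binding.

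All values are log2 probe set signals, and a value with ± is a mean with its SD over 3 arrays. The Sox2 signal was 7.90 ± 0.61 in controls against 3.98 ± 0.70 in Sox2cKO. The basal keratinocyte markers Krt5 and Krt14 read above 13 on every array (lowest values 13.32 and 13.94). All 7 basal markers passed the filter, and their mean level was 12.11 to 12.14 in controls and 12.00 to 12.13 in Sox2cKO. Of the positive sort markers, Epcam read 11.31 ± 0.20 in controls and 10.85 ± 0.35 in Sox2cKO, and Itga6 12.17 ± 0.07 and 12.26 ± 0.19. Of the markers sorted out, Pdgfra (CD140a) read 5.30 ± 0.24 and 6.32 ± 0.89. Ptprc (CD45) read 5.00 ± 0.27 and 5.10 ± 0.48, and Pecam1 (CD31) 4.58 ± 0.11 and 4.73 ± 0.21. Over all genes, 0 of 13222 passed an adjusted p of 0.05 in limma (0% of genes), and 354 had an unadjusted p under 0.05 (2.68%), or 656 with the replicate number as a block. Of the marker lists of other cells, all 8 fibroblast genes were on the array and passed the filter, and their mean level was 6.94 to 7.83 in controls and 7.96 to 9.56 in Sox2cKO, highest in Sox2cKO replicate 3. The Langerhans cell list (6 of 6 passed) lay at 8.03 to 8.49 in controls and 7.20 to 7.95 in Sox2cKO, with Cd207, the defining marker, near the filter level at 4.81 to 5.18. Leukocyte markers (6 of 6) lay at 5.67 to 5.71 and 5.70 to 5.78, macrophage and dendritic cell markers (9 of 10) at 5.56 to 5.76 and 5.48 to 6.10, and neutrophil markers (6 of 6, of which S100a8 and S100a9 are also made by keratinocytes) at 7.79 to 7.99 and 7.70 to 7.97. T cell markers (2 of 5 on the array) lay at 4.62 to 4.66 and 4.63 to 4.79, endothelial markers (2 of 6, with Pecam1, Cdh5, Tek and Emcn failing the filter) at 4.46 to 4.78 and 4.72 to 4.77, and melanocyte markers (5 of 5) at 5.60 to 6.20 and 5.00 to 6.98. Suprabasal keratinocyte markers (7 of 7) lay at 9.79 to 10.70 and 9.95 to 10.81. The part of these cells in the results was not tested, and in bulk RNA fewer cells of a type and less RNA per cell cannot be told apart. Control replicates 2 and 3 had a female pattern of Xist and Y-linked genes and the other 4 arrays a male one.

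Across the 9 measured NF-kB genes the groups overlapped in every case: 0 of 9 had all values of a group above all values of the other, where 5.85% of all genes did (3.12% lower and 2.73% higher in Sox2cKO). The same held for 0 of their 19 tested probe sets, against 6.26% of all. With 1 array left out, groups were apart in 2 of 9 genes in 3 of the 6 cases, lower in Sox2cKO each time. These were Nfkbiz and Tnfaip3 without control replicate 1 (18% of all genes), Relb and Birc3 without Sox2cKO replicate 1 (13.6%), and Nfkbia and Tnfaip2 without Sox2cKO replicate 3 (16.9%). Without control replicate 2, control replicate 3 or Sox2cKO replicate 2 the count was 0 of 9 (10.8%, 13.2% and 20.1% of all genes). The mean was lower in Sox2cKO for 6 of 9 genes, against 49.4% of all genes, and the median difference was -0.04 against 0.00 for all genes. Differences are Sox2cKO minus control. Only 1 of the 9 differences, that of Tnfaip2, was larger than the pooled SD within groups, which 22% of all genes exceeded. By role, 1 of 4 subunit genes, both IkB genes and all 3 target and feedback genes had a lower mean in Sox2cKO. The counts share the comparison that led to the choice of the genes and support nothing further.

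**Figure D1:**
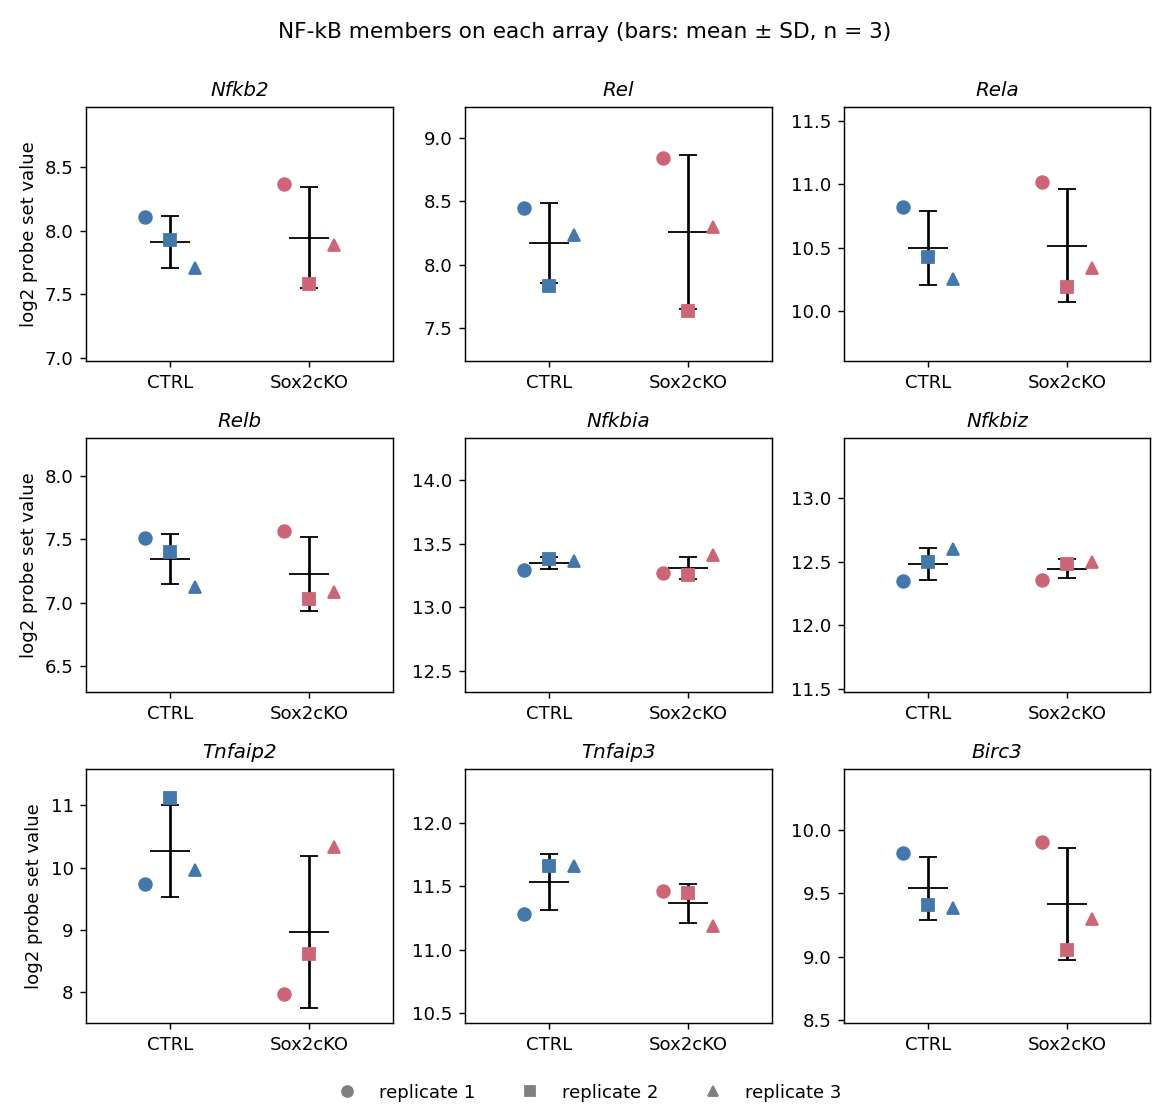
Log2 probe set value of the 9 measured NF-kB genes on each array, controls left and Sox2cKO right, with marker shapes for the replicate number and bars for mean ± SD (n = 3); each panel has its own axis. The groups overlap in every panel, Tnfaip2 spans 3.13 log2 units over the arrays and Nfkbia spans 0.17, and replicate 1 of both groups is highest for Nfkb2, Rel, Rela, Relb and Birc3.

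The subunit genes differed between the group means by less than their SD within groups, and the direction depended on which arrays were compared. Against control replicate 1 alone, which is what a sex covariate amounts to here, all 4 were lower in Sox2cKO, at -0.16 for Nfkb2, -0.19 for Rel, -0.30 for Rela and -0.29 for Relb. Without Sox2cKO replicate 1 all 4 were lower too, between -0.18 and -0.29. Rela, at chr19:5637442-5648134, encodes p65, the main activating subunit, and its only probe set (1419536_a_at) read 10.82, 10.43 and 10.25 in control replicates 1 to 3 and 11.02, 10.19 and 10.33 in Sox2cKO. Replicate 1 was the high array in both groups, and the other 4 arrays of the 2 groups were interleaved. The difference was 0.01 with a standard error of 0.25 (10.50 ± 0.29 and 10.51 ± 0.45). Rel, which encodes the c-Rel subunit best known from lymphocytes (chr11:23736847-23770969; 1420710_at), read 8.45, 7.83 and 8.23 in controls and 8.84, 7.64 and 8.29 in Sox2cKO. Replicate 1 was again highest and replicate 2 lowest in each group. Its difference was 0.09 with a standard error of 0.31, and besides the sex covariate its sign turned on leaving out Sox2cKO replicate 1 (-0.21) or control replicate 2 (-0.08).

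Nfkb2 and Relb encode the p100 precursor of p52 and the RelB subunit, which together form the dimer of the non-canonical branch of the pathway. Nfkb2 (1425902_a_at) read 8.11, 7.92 and 7.70 in controls and 8.37, 7.58 and 7.89 in Sox2cKO, a difference of 0.03 with a standard error of 0.22. Its second probe set, 1429128_x_at, gave 0.02, but there the high arrays were control replicate 2 at 8.22 and Sox2cKO replicate 1 at 8.30. Relb (chr7:19606217-19629438; 1417856_at) read 7.51, 7.40 and 7.12 in controls and 7.56, 7.03 and 7.08 in Sox2cKO. Sox2cKO replicates 2 and 3 lay below all controls, and Sox2cKO replicate 1 lay above them. The difference of Relb was -0.12 with a standard error of 0.18. It ranged from -0.29 (Sox2cKO replicate 1 left out) to -0.02 (Sox2cKO replicate 2 left out) and kept its sign in the 10 alternatives that gave another value. The signs of the other 3 subunit genes each changed in 3 or 4 alternatives.

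Among the IkB genes, Nfkbia encodes IkB-alpha, the main cytoplasmic inhibitor, and is a rapid target of the dimers it inhibits; its promoter match is shown above. Of all its probe sets, 1438157_s_at had the highest mean and stood for the gene, at 13.29, 13.38 and 13.36 in controls and 13.27, 13.25 and 13.41 in Sox2cKO. The 6 arrays lay within 0.17 of each other, and 95.8% of all genes had a larger SD within groups. Signals near 13 are close to the top of the array's range, where differences can be compressed. The difference was -0.03 with a standard error of 0.11. All 4 other probe sets of Nfkbia also had a lower mean in Sox2cKO, between -0.08 and -0.25. Of these, 1448306_at read 13.06, 13.25 and 13.04 in controls and 12.85, 13.08 and 12.96 in Sox2cKO. Its means differed by -0.16, and Sox2cKO was lower in all 3 pairs of equal replicate number, by -0.22, -0.17 and -0.09, although the groups overlapped. The probe set 1449731_s_at differed by -0.13, with pairs at -0.14, -0.14 and -0.12. Probe sets of 1 gene are read on the same arrays and are not independent, yet they can differ. Within groups 1438157_s_at correlated at 0.10 with 1448306_at and at 0.92 with 1420088_at. The suffix s marks probes shared between transcripts of more than 1 gene.

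Nfkbiz encodes IkB-zeta, a nuclear IkB protein that is induced by the pathway and acts on a subset of its targets (chr16:55811375-55838954). Its probe set 1417483_at read 12.35, 12.50 and 12.60 in controls and 12.36, 12.48 and 12.50 in Sox2cKO, so control replicate 1 was the lowest array and the other 2 controls lay at or above all Sox2cKO arrays. The difference was -0.04 with a standard error of 0.12, and the sex covariate turned it to 0.10. A dimmer probe set, 1457404_at, spread more widely, at 8.70, 10.04 and 9.53 in controls and 8.51, 9.78 and 8.21 in Sox2cKO. It differed by -0.59 with a standard error of 0.47, lower in all 3 pairs, of which the pair of number 3 gave -1.32. With the mean of all its probe sets Nfkbiz differed by -0.22 and Nfkbia by -0.13. Counting over probe sets, 13 of 19 had a lower mean in Sox2cKO (47.8% of all 23534 probe sets tested). In 4 of 19 Sox2cKO was lower in every pair (12.7% of all), and all 4 belonged to Nfkbia and Nfkbiz.

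**Figure D2:**
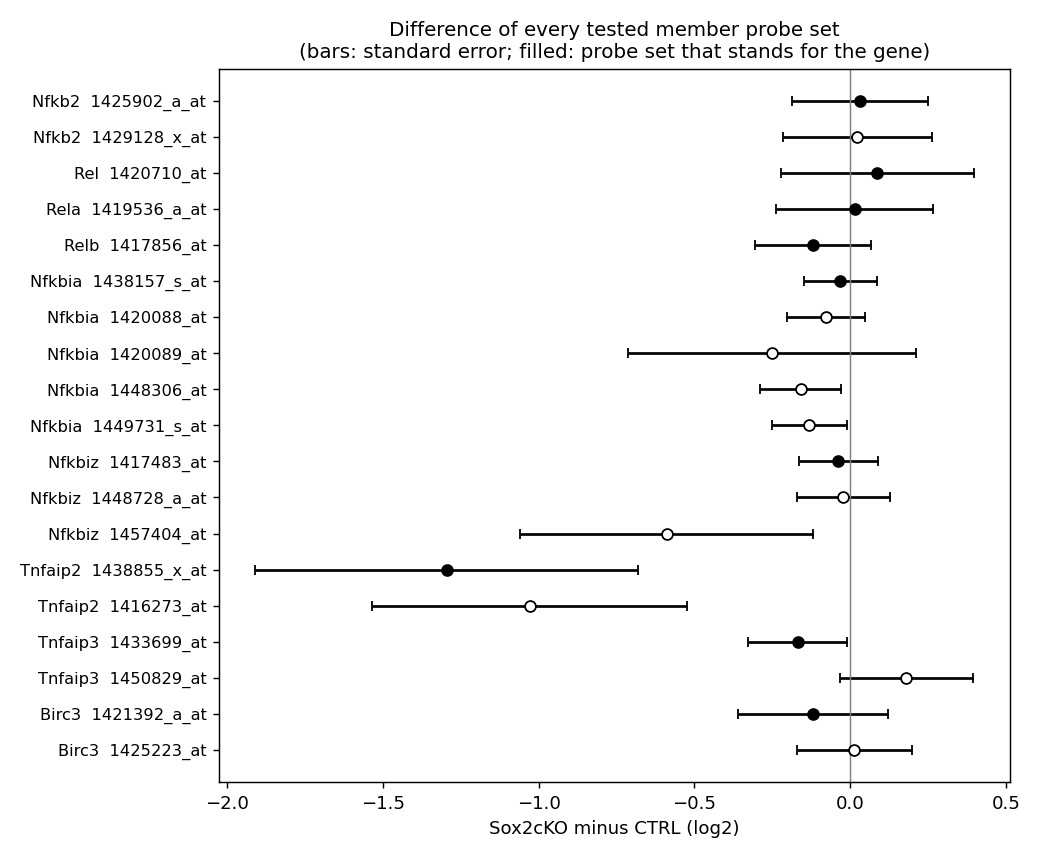
Sox2cKO minus control on the log2 scale for the 19 tested probe sets of the NF-kB genes, with bars for the standard error from limma fitted to all probe sets; filled points mark the probe set that stands for its gene. Both tested probe sets of Tnfaip2 lie beyond -1, and all 5 of Nfkbia and all 3 of Nfkbiz lie below 0, most within their standard error of it.

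Tnfaip2, a TNF-induced gene whose product promotes cell protrusions and tunnelling nanotubes, had the lowest difference and the widest spread (chr12:111442450-111455018). Its probe set 1438855_x_at read 9.73, 11.11 and 9.96 in controls and 7.98, 8.61 and 10.33 in Sox2cKO. Sox2cKO replicates 1 and 2 lay below all controls, and Sox2cKO replicate 3 lay above 2 of them. The means were 10.27 ± 0.74 and 8.97 ± 1.22, a 2.45-fold lower signal, and the log2 difference was -1.29 with a standard error of 0.62. By rank, 19 of 13222 genes had a lower difference, and 0.809% had a larger SD within groups. Tnfaip2 was among the genes whose lower means led to the choice, so this rank supports nothing further. The second tested probe set, 1416273_at, gave the same order, at 8.41, 9.98 and 8.43 against 7.35, 7.64 and 8.75, and a difference of -1.03; the third, 1457918_at, lay below the filter at 4.28 to 4.62. By pair the differences were -1.75, -2.50 and 0.37. Without 1 array the value depended on which, at -0.80 without Sox2cKO replicate 1, -0.87 without control replicate 2, and -1.97 once Sox2cKO replicate 3 was dropped, and it was -0.76 with the sex covariate. Sox2cKO replicate 3 also had the highest fibroblast marker level and the highest 18S ribosomal RNA signal (12.49 against 10.96 to 11.77 on the other arrays), and their part in its Tnfaip2 value was not tested.

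Tnfaip3 encodes A20, a ubiquitin-editing enzyme that shuts off signalling from the TNF and Toll-like receptors, and its promoter carried 2 of the matches shown above. Its probe set 1433699_at read 11.28, 11.66 and 11.66 in controls and 11.46, 11.45 and 11.19 in Sox2cKO. Control replicate 1 lay within the range of the Sox2cKO arrays, and the other 2 controls lay above it. The difference was -0.17 with a standard error of 0.16, and the second probe set, 1450829_at, pointed the opposite way at 0.18, with its highest value of 8.04 in Sox2cKO replicate 1. The sign of Tnfaip3 changed with the sex covariate (0.09) and with the mean of its probe sets. Birc3, a ubiquitin ligase of the TNF receptor complex and a survival target of NF-kB (chr9:7847468-7873205), read 9.82, 9.41 and 9.39 in controls and 9.91, 9.05 and 9.29 in Sox2cKO with 1421392_a_at. Replicate 1 was highest in both groups. The difference was -0.12 with a standard error of 0.24, and 1425223_at gave 0.01. Over the alternatives it ran from -0.40 with the sex covariate and -0.36 without Sox2cKO replicate 1 to 0.02 without control replicate 1 and 0.06 without Sox2cKO replicate 2.

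The pairs of equal replicate number went different ways. Arrays of equal number deviated together from their group means over all genes (correlations 0.206 to 0.288), and a number was read as a pair. The labels do not say what a number marks. Deviations sum to 0 over the 3 arrays of a group, which ties these correlations to each other, so they do not establish a pairing. In the pair of number 2 all 9 genes were lower in Sox2cKO (47.7% of all genes), with a median of -0.24. In the pair of number 1 only Nfkbia and Tnfaip2 were lower, 2 of 9 (55.5% of all genes), with a median of 0.09. In the pair of number 3 there were 4 of 9, namely Relb, Nfkbiz, Tnfaip3 and Birc3 (48.6% of all genes), with a median of 0.05. By the probe set that stands for each gene, no member was lower, and none higher, in all 3 pairs, where 12.7% and 12.1% of all genes were. Among the 19 tested probe sets 4 others, of Nfkbia and Nfkbiz, were lower in all 3 pairs (12.7% of all probe sets). The median difference over the 9 genes without Sox2cKO replicate 2 was near 0 and without Sox2cKO replicate 1 it was -0.22.

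Within groups part of the members varied together, and this variation was not used to choose them. After subtracting each group's mean, the 36 pairs of members had a median correlation of -0.17 over the 6 arrays, with 14 positive. All 6 pairs among Rela, Rel, Relb and Nfkb2 correlated positively (0.67 to 0.97, median 0.90), and Birc3, set beside them after its values were seen, followed each of the 4 (0.91 to 0.98). All 20 correlations of these 5 genes with Nfkbia, Nfkbiz, Tnfaip2 and Tnfaip3 were negative (-0.87 to -0.04). Both replicate 1 arrays lay above the other 4 arrays for 5 of the 9 members, against 7.59% of all genes. These 5 were the subunit genes and Birc3. Birc3 was placed with the subunit genes by its values, so this split and the 20 correlations across it restate in part how the 5 genes were put together. Control replicate 1 was also the only control array with a male pattern, so number and sex cannot be told apart within controls. All Sox2cKO arrays had a male pattern. The mean of both replicate 1 arrays exceeded that of the others by 0.65 for Rel, 0.62 for Rela, 0.58 for Birc3, 0.46 for Nfkb2 and 0.38 for Relb. For Tnfaip2 the same difference was -1.15, and replicate 1 was the lowest array within each group. The second probe sets of Nfkb2 and Birc3 did not have both replicate 1 arrays on top, and the 2 probe sets of Birc3 correlated at -0.80 within groups. The correlations rest on 6 arrays that share their replicate numbers and are given as a description.

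A test of the replicate number in limma, in a fit with genotype and number, was added after this pattern was seen. The adjusted p values over all genes were 0.340 for Rel, 0.365 for Rela, 0.366 for Birc3, 0.457 for Relb and 0.459 for Nfkb2, and those of the other 4 genes lay between 0.563 and 0.862. No gene of the 13222 passed an adjusted p of 0.05 for the number (0%), and 1622 had an unadjusted p under 0.05 (12.3%), Rel, Rela and Birc3 among them. On the same arrays suprabasal markers averaged 10.70 in control replicate 1 and 10.81 in Sox2cKO replicate 1, but also 10.76 in Sox2cKO replicate 2, against 9.79 to 9.95 on the other 3. The part of suprabasal cells in the subunit levels was not tested.

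**Figure D3:**
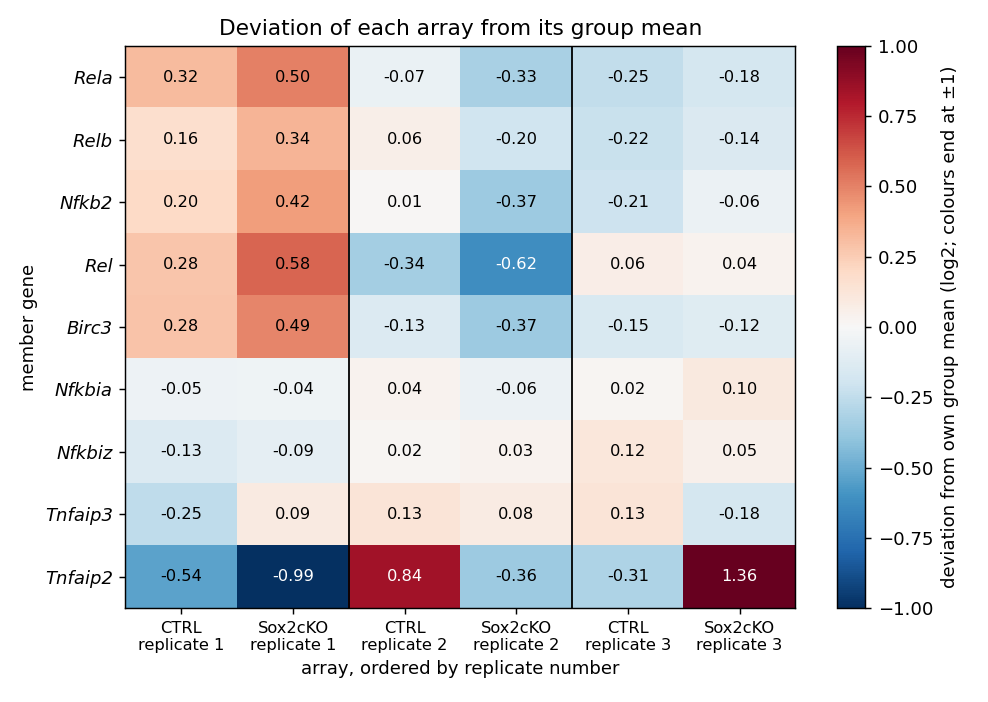
Deviation of each array from the mean of its own group (log2 units, printed in each cell), for the 9 measured NF-kB genes in rows and the 6 arrays in columns ordered by replicate number; red is above and blue below the group mean. The subunit genes and Birc3 are above their group mean on both replicate 1 arrays (0.16 to 0.58), and Tnfaip2 runs from -0.99 in Sox2cKO replicate 1 to 1.36 in Sox2cKO replicate 3.

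The rest of the pathway was followed in 4 lists of other genes, ordered from signal to target. None of their members passed an adjusted p of 0.05 in limma in either direction; the lowest adjusted p was 0.999 in each list. Of ligands and receptors, 19 of 23 listed genes were tested, 8 higher and 11 lower, with a median of -0.02. Tnf, the founding ligand of the pathway, read 8.73 ± 0.64 in controls and 8.24 ± 0.14 in Sox2cKO, and Il1a, an alarm cytokine stored in keratinocytes, read 7.79 ± 0.57 and 7.39 ± 0.49. Tlr2, a receptor for bacterial lipoproteins, differed by 0.33. Of adaptors and kinases, 26 of 31 were tested, 17 higher and 9 lower, with a median of 0.02. The kinase gene Map3k7 (TAK1), which activates the IkB kinase, read 7.97 ± 0.29 and 8.25 ± 0.09, and the adaptor genes Traf6 and Myd88 differed by 0.23 and 0.16.

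Of the other IkB genes and negative regulators, 22 of 23 were tested, 10 higher and 12 lower, with a median of -0.01. Nfkbie, which encodes IkB-epsilon, read 7.50, 7.22 and 7.78 in controls and 7.49, 6.68 and 6.86 in Sox2cKO, a difference of -0.49 with a standard error of 0.24. Bcl3, a nuclear IkB protein that binds the p50 and p52 subunits, read 9.05, 9.50 and 9.01 in controls and 9.05, 8.73 and 8.79 in Sox2cKO, a difference of -0.32. In both genes Sox2cKO replicates 2 and 3 lay below all controls and Sox2cKO replicate 1 did not. Rnf11, a subunit of the A20 complex, differed by 0.32.

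Of 30 tested target genes among 32 listed, 9 were higher and 21 lower, and the median of -0.13 was the lowest of the 4 lists. Over all genes the median was 0.00, and 49.4% had a lower mean. The target genes also varied more within groups, with a median pooled SD of 0.49 against 0.19 over all genes. The list was chosen with earlier results of these data known, so its counts and median are a description and support nothing further. Lcn2, which encodes an iron-binding antibacterial protein, read 10.12, 11.31 and 10.24 in controls and 8.85, 10.18 and 9.24 in Sox2cKO, a difference of -1.13 with a standard error of 0.42. It was the only one of the 30 with an unadjusted limma p under 0.05 (0.0297), and its groups overlapped. By pair Lcn2 was lower in Sox2cKO each time, at -1.27, -1.13 and -0.996, and in limma with a replicate block its unadjusted p was 0.000153 and its adjusted p 0.337. With that block 7 of the 30 target genes had an unadjusted limma p under 0.05, 5 of them lower in Sox2cKO, where 656 of all 13222 genes did. Outside the targets 2 of 19 ligands and receptors (Tlr2 and Il1a), 1 of 26 adaptors and kinases (Map3k8) and 0 of 22 IkB genes and negative regulators did. None of these did without the block, and over all genes the count also rose with it, from 354 to 656. Mmp9, a gelatin-cleaving protease gene, differed by -0.71, and the cytokine gene Csf2 by -0.61. The mean centred value of the target list was 0.24, 0.00 and 0.04 in controls and 0.07, -0.44 and 0.09 in Sox2cKO, so Sox2cKO replicate 2 was the low array, as it was for the mean of the 9 NF-kB genes (-0.33 there and 0.00 to 0.15 on the other 5 arrays). Without that array the median of the target list was -0.02. Groups were apart in 0 of 19, 1 of 26, 0 of 22 and 0 of 30 genes of the lists (5.85% of all genes). The 1 gene, named after its values were seen, was the TAK1 adaptor gene Tab2, at 10.57 ± 0.09 and 10.44 ± 0.03.

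**Figure D4:**
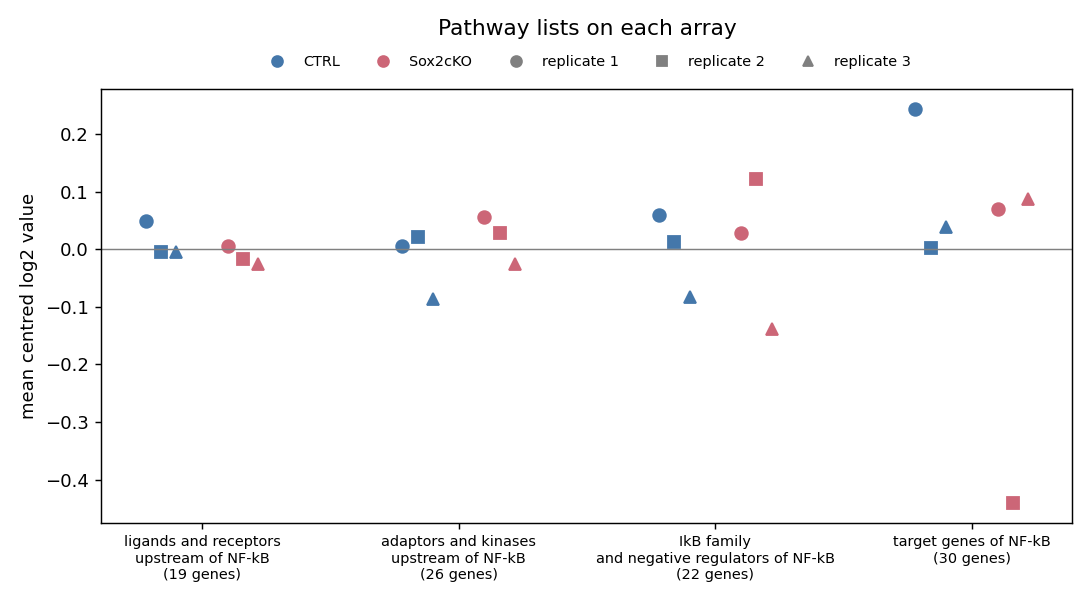
Mean of the log2 values of each pathway list on each array after every gene was centred on its mean over the 6 arrays, with controls in blue, Sox2cKO in red and shapes for the replicate number. Upstream and inhibitor lists stay between -0.14 and 0.12, and the target list is at -0.44 on Sox2cKO replicate 2.

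Genes whose deviations within groups followed the mean of the 9 NF-kB genes most closely were Nphp4 (correlation 0.998), Ecel1 (0.998), Prcd (0.996), Prpf8 (0.992) and Ptpn5 (0.987), from 13213 genes compared over 6 arrays. With so few arrays 191 genes exceeded a correlation of 0.9. The mean joins members that ran against each other (median correlation -0.17 over 36 pairs), so a gene that follows it need not follow each member.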

How the data were processed

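R 2.14.0 is named in the submitters' processing notes. The authors' deposited table holds 1 value per probe set and array, read as log2 from its range, and array medians of 5.42 to 5.46 show a common scale. For background correction, summarising and normalization no source used here names a method. The number of arrays limits the precision. Of 45037 mouse probe sets, 34945 had 1 gene symbol, 932 several and 9160 none in the platform annotation. Probe sets entered the test with 3 or more of 6 arrays above that array's 40th percentile (4.90 to 4.94), and the one with the highest mean stood for its gene. The two-sided test was that of limma 3.58.1 under R 4.3.3, adjusted by Benjamini-Hochberg over 13222 genes. Adjusted p values come from that fit, except where the replicate block, the replicate number or another alternative is named. On simulated data of 13222 genes with 3 arrays per group and independent normal noise, changes of 1, 2 and 4 log2 units were planted in 67, 67 and 66 genes. The test called 70.1% of genes changed by 1 unit, 91% by 2 and 100% by 4. It also called 10 of 13022 unchanged genes. The planted changes ease the adjustment for all genes, so these shares are not the power on the real arrays. There Sox2, at -3.92, was not called. Members, lists and tests were chosen with earlier results of these data known. Named are all members, the 3 list genes of smallest p, markers, and the 5 genes most like the members. Same-number arrays correlated at 0.206 to 0.288 and arrays of different number at -0.333 to 0.064. Alternatives left out each array, blocked on the number, added a sex covariate, or changed filter, scale, probe set choice or variance model.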

Additional observations from a re-analysis of the deposited data

How the results depend on the processing

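Over the alternatives the count of genes past an adjusted p of 0.05 in limma was 0, except 5 without control replicate 1 and 1 with the sex covariate (range 0 to 5 when 1 array was left out), none of them a member. With the replicate number as a block the count was 0; in this balanced design the block cannot move a difference of means, so it says nothing about them. The count of members with a lower mean was 5 to 8 when 1 array was left out and 13 of 19 when every probe set was tested on its own, an alternative added after the data were seen that counts more units. Members with groups apart numbered 0 to 2 without 1 array. The median difference of the members ranged from -0.22 to -0.0002 without 1 array, and with the sex covariate it was -0.19. Over the same settings the median of ligands and receptors ranged from -0.012 to 0.028, and it was 0.024 with the mean of tested probe sets; that of adaptors and kinases ranged from -0.019 to 0.081, that of IkB genes and negative regulators from -0.04 to 0.03, and that of target genes from -0.15 to -0.02, with -0.22 under the sex covariate. The count of genes that differed with the replicate number was 0 to 1 when a number was left out. The cause of these shifts was not tested.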
